A study of Homo sapiens with 12 samples.

Results

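KIT is the receptor tyrosine kinase for stem cell factor, the growth factor on which mast cells depend. The 10 genes described here act at or next to this receptor and were followed in 4 groups of HMC-1 human mast cell sublines. They are KIT itself, its ligand KITLG (stem cell factor), the adaptors GRB2, SHC1 and GAB2, the inhibitory adaptor SH2B3 (LNK), the ubiquitin ligases CBL and CBLB, and the tyrosine phosphatases PTPN6 (SHP-1) and PTPN11 (SHP-2). They were chosen by symbol for their role, with earlier results of these data known, and make up 10 of the 58381 genes in the count table. Of these, 9 passed the filter on low counts and entered the tests with 15944 genes in all, and KITLG did not.

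HMC-1 cells come from a mast cell leukemia. HMC-1.1 cells carry V560G-KIT alone, whereas HMC-1.2 cells carry V560G-KIT together with D816V-KIT. HMC-1.3 cells were derived from HMC-1.2 by CRISPR/Cas9 repair of V560G and keep a single monoallelic D816V-KIT, and 2 of their subclones, clone 1 and clone 2, were sequenced. Each of the 4 groups had 3 libraries, 12 in all, from cells in culture plated in triplicate wells, so the p-values below measure the spread between wells of a subline. In the study's description the mutations are heterozygous, so every group also has a normal KIT allele, and no group is free of KIT mutation. Each HMC-1.3 group grew from a single edited clone and no unedited subclone of HMC-1.2 was sequenced, so repair of V560G cannot be told apart from clonal differences. HMC-1.1 and HMC-1.2 are separate sublines, so D816V likewise cannot be told apart from their other differences.

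In unmutated cells KITLG brings a pair of KIT molecules together, and tyrosines phosphorylated in the receptor then dock SRC-homology adaptors and enzymes. SHC1 and GRB2 lead from the receptor to SOS and RAS, and GAB2 leads to PI3K and PTPN11. SH2B3, CBL, CBLB and PTPN6 limit the signal by blocking, ubiquitinating or dephosphorylating the receptor and its partners. V560 lies in the juxtamembrane region, which holds the kinase inactive, and D816 lies in the activation loop of the kinase, and changes at either residue let KIT signal without ligand.

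The positions that separate the groups are shown first, because the labels separate the groups by codons that gene-level counts do not resolve. KIT lies on chromosome 4 (chr4:54657267-54740783, plus strand, GRCh38), and the reading frame of transcript ENST00000288135 has 21 coding exons and 976 residues. Both lines below give the unmutated reference sequence of that transcript, 5′ to 3′, and the capitals mark the codon that is mutated. The repair template for HMC-1.3 also held a silent change in the codon that follows 560, which lies inside the first stretch. The first stretch is chr4:54727416-54727478 in exon 11, with the valine codon at 54727446-54727448. The second is chr4:54733124-54733186 in exon 17, with the aspartate codon at 54733154-54733156.
KIT codon 560, exon 11: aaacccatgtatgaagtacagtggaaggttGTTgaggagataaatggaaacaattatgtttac
KIT codon 816, exon 17: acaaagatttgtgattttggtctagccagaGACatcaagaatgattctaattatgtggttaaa
A gene-level count adds transcripts of every KIT allele, so the values below say how much KIT transcript there was and not which allele it came from.

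The libraries held 29225900 to 43181402 counts assigned to genes, and TMM scaling factors ran from 0.974 to 1.024. The mast cell label was checked against 10 marker genes. KIT, HDC (histidine decarboxylase, 814 to 1037 FPKM) and GATA2 (212 to 247 FPKM) were high in every library, while the IgE receptor subunits FCER1A (0.12 to 1.27 FPKM) and MS4A2 (0.06 to 0.45 FPKM) were close to 0. The tryptase gene TPSAB1 ranged from 27.6 to 607 FPKM between libraries, and TPSB2 from 33.5 to 99.5. MITF read 18 to 24.4 FPKM, CPA3 3.04 to 11.3 and ENPP3 0.26 to 11.95. The markers include KIT itself, and the wide range of TPSAB1 weighs heavily in their sum. The summed level of the 10 markers was 2275 to 2313 FPKM in HMC-1.2 and 1559 to 1673 FPKM in the other groups. The part of that difference in the results below was not tested. Markers of T cells, B cells, monocytes, erythroid cells and stromal cells summed to at most 6.18 FPKM per cell type in any library.

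KIT was among the most abundant transcripts of these cells. Its mean over 12 libraries was 406 FPKM (fragments per kilobase of transcript scaled to library depth, a level that allows for gene length), higher than 98.6% of the genes tested. PTPN6 stood close to it at 361 FPKM, above 98.4% of genes. GRB2 (130 FPKM), SHC1 (72.9), SH2B3 (49.9) and PTPN11 (48.2) followed, and CBL (15), GAB2 (9.06) and CBLB (3.19) were the lowest of the tested genes. The ligand stood at 0.00417 FPKM. Per unit of length, then, the receptor and the inhibitory phosphatase PTPN6 were the most abundant transcripts of the set in the mean over libraries. Their order was reversed in HMC-1.2, with PTPN6 at 423 ± 16.7 FPKM (SD, n = 3) and KIT at 356 ± 8.55 FPKM. KIT was the higher of the pair in the other groups.

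**Figure D1:**
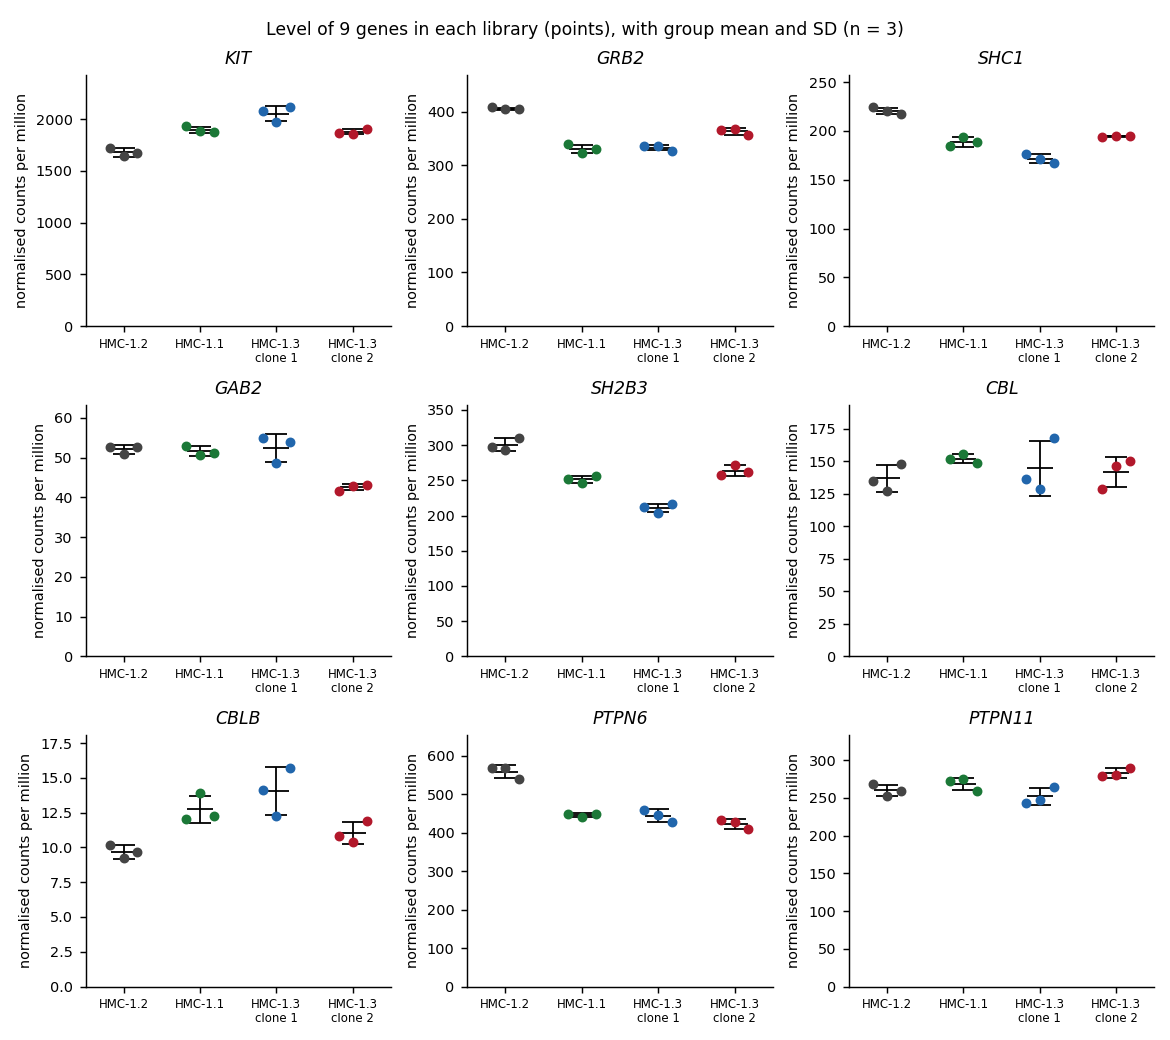
Normalised CPM (counts scaled to library size, y axes, from 0, 1 scale per gene) of the 9 tested genes in the 12 libraries, by group on the x axes; points are libraries, and the black marks are the group mean ± SD (n = 3). KIT was lowest in HMC-1.2 (1643 to 1726) and PTPN6 highest there (540 to 569), and GAB2 was lowest in HMC-1.3 clone 2 (41.6 to 43.2).

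KIT transcript was lowest in HMC-1.2, the subline with both mutations, and higher by 11.6% to 22.2% in the other 3 groups. In normalised CPM (counts scaled to library size with TMM factors), the 3 HMC-1.2 libraries read 1726, 1643 and 1676. The HMC-1.1 libraries read 1932, 1889 and 1874. HMC-1.3 clone 1 gave 2075, 1973 and 2115, and clone 2 gave 1870, 1858 and 1904. No library of another group fell within the HMC-1.2 range, and the ranges of HMC-1.1 and clone 2 overlapped. The mean FPKM was 356 ± 8.55 (SD, n = 3) for HMC-1.2, 414 ± 7.89 for HMC-1.1, 450 ± 21.4 for clone 1 and 405 ± 6.83 for clone 2. In bulk RNA, fewer cells with a transcript and less transcript per cell cannot be told apart.

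Tests used edgeR's quasi-likelihood fit over all 15944 genes with Benjamini-Hochberg adjustment, and a fold change is given as log2 with its standard error (SE). Against HMC-1.2, KIT rose by 0.29 (SE 0.03, adjusted p = 2.89e-07) in clone 1, 0.16 (SE 0.03, adjusted p = 0.000297) in clone 2 and 0.18 (SE 0.03, adjusted p = 0.000101) in HMC-1.1. These 3 comparisons share the HMC-1.2 libraries, so a low or high draw of HMC-1.2 would move all of them. The clones also differed from each other, with KIT 9.42% higher in clone 1 (log2 0.13, SE 0.03, adjusted p = 0.00166). Clone 1 exceeded HMC-1.1 by 0.11 (SE 0.03, adjusted p = 0.0144), a call that was lost (adjusted p up to 0.0745) when HMC-1.1 replicate 2, HMC-1.1 replicate 3 or clone 1 replicate 1 was left out, and also when FPKM values were tested with limma (adjusted p = 0.0518). Clone 2 and HMC-1.1 stood next to each other in the order of levels and did not differ beyond their spread (log2 -0.02, 95% confidence interval -0.0795 to 0.0474).

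Genes around KIT were also somewhat higher in these groups than in HMC-1.2. The 23 tested genes within 5 Mb on either side of KIT had a median difference from HMC-1.2 of 0.13 on the log2 scale for clone 1, 0.11 for clone 2 and 0.14 for HMC-1.1, and 69.6%, 65.2% and 65.2% of them lay above 0. KIT's own values, 0.29, 0.16 and 0.18, were above these medians. Of the 23 neighbours, 73.9%, 56.5% and 73.9% passed the adjusted p, beside 59.4%, 48.5% and 53.7% of all genes. The medians of all genes tested were 0.0137, -9.12e-05 and 0.00851 in the same order. Between the clones the median of the neighbours was -0.02, whereas KIT was 0.13 higher in clone 1. Medians away from 0 were not particular to this region. In clone 1 against HMC-1.2, the 70 tested genes near GAB2 had a median of 0.12, where GAB2 itself stood at 0.01. The 107 near PTPN6 had a median of -0.08. In clone 2 and HMC-1.1 the medians against HMC-1.2 were 0.0562 and 0.075 near GAB2, and -0.0561 and -0.0616 near PTPN6. The part of the neighbouring genes in the KIT result was not tested.

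KITLG, the ligand, was not detectable in most libraries. It had 0 counts in 9 of 12 libraries, 1 count in HMC-1.2 replicate 2, and 2 and 3 counts in HMC-1.3 clone 2 replicates 1 and 3. A count of 0 allows up to 3 counts, which is 0.0765 to 0.103 CPM over the libraries with 0 counts, without TMM factors. This limit covers counting error only. No fold change is given for a gene at this level. Counts this low put KITLG transcript far below KIT, at 1643 to 2115 normalised CPM, in every library.

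Of the adaptors, GRB2 and SHC1 moved opposite to KIT and were highest in HMC-1.2. GRB2, which bridges phosphorylated receptors and SHC1 to the RAS exchange factor SOS, read 408, 404 and 404 CPM in HMC-1.2. HMC-1.1 gave 339, 323 and 330, clone 1 gave 336, 336 and 327, and clone 2 gave 366, 368 and 356. The HMC-1.2 libraries lay above all others and clone 2 lay between HMC-1.2 and the remaining groups. GRB2 fell by 0.28 on the log2 scale in clone 1 (SE 0.03, adjusted p = 1.32e-07), by 0.16 in clone 2 (SE 0.03, adjusted p = 0.000129) and by 0.29 in HMC-1.1 (SE 0.03, adjusted p = 1.08e-07). Clone 2 was 9.79% above HMC-1.1 (adjusted p = 0.00108), and clone 2 was also above clone 1, which gave a difference of -8.26% for clone 1 (adjusted p = 0.00124). Clone 1 and HMC-1.1 differed by 0.01 (adjusted p = 0.842, 95% interval -0.0482 to 0.0691).

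SHC1, which binds phosphotyrosines and recruits GRB2, had its highest values in the same libraries. HMC-1.2 read 224, 220 and 218 CPM, HMC-1.1 read 184, 194 and 188, clone 1 read 176, 172 and 168, and clone 2 read 194, 195 and 195. Clone 1 held the 3 lowest values of the 12. Against HMC-1.2, SHC1 fell by 0.36 in clone 1 (SE 0.03, adjusted p = 1.36e-08), by 0.18 in clone 2 (SE 0.03, adjusted p = 6.13e-05) and by 0.23 in HMC-1.1 (SE 0.03, adjusted p = 5.5e-06), all on the log2 scale. Clone 1 was also below clone 2 (log2 -0.18, adjusted p = 7.5e-05) and below HMC-1.1 (log2 -0.14, adjusted p = 0.00405). PYGO2 overlaps SHC1 on the same strand with 1572 to 2329 counts per library, and its own log2 fold changes against HMC-1.2 were -0.05, -0.01 and 0.01 in clone 1, clone 2 and HMC-1.1, none of which passed the test.

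GAB2, the docking protein that carries PTPN11 and the regulatory subunit of PI3K, differed from the other adaptors in that clone 2 stood apart. Its level was 52.7, 50.8 and 52.7 CPM in HMC-1.2, 53, 50.6 and 51.2 in HMC-1.1, and 55.1, 48.5 and 54 in clone 1. All 3 clone 2 libraries were lower, at 41.6, 42.9 and 43.2. GAB2 fell in clone 2 by 0.29 on the log2 scale against HMC-1.2 (SE 0.05, adjusted p = 4.97e-05) and by 0.28 against HMC-1.1 (SE 0.05, adjusted p = 0.00014), and clone 1 exceeded clone 2 by 0.30 (SE 0.05, adjusted p = 3.18e-05). Clone 1, HMC-1.2 and HMC-1.1 were neighbours in the order of levels and did not differ beyond their spread. The log2 fold change of clone 1 against HMC-1.2 was 0.01 (95% interval -0.0846 to 0.107) and that of HMC-1.1 was -0.01 (95% interval -0.11 to 0.0822), and the sign of each changed in some alternatives.

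SH2B3 gave the largest drop among the 9 genes in clone 1. This adaptor binds KIT and JAK2 and restrains signalling from them. It read 297, 294 and 311 CPM in HMC-1.2, 251, 247 and 257 in HMC-1.1, 213, 204 and 216 in clone 1, and 257, 272 and 262 in clone 2. Clone 1 lay below every other library and HMC-1.2 above every other. Against HMC-1.2 the difference was -29.9% in clone 1 (log2 -0.51, SE 0.03, adjusted p = 7.57e-10), -12.3% in clone 2 (log2 -0.19, SE 0.03, adjusted p = 0.000149) and -16.3% in HMC-1.1 (log2 -0.26, SE 0.03, adjusted p = 5.08e-06). SH2B3 was lower in clone 1 than in clone 2 by a log2 fold change of -0.32 (SE 0.03, adjusted p = 4.88e-07) and than in HMC-1.1 by -0.26 (SE 0.03, adjusted p = 6.84e-05). The difference of clone 2 from HMC-1.1 did not pass the test (log2 0.07, adjusted p = 0.125, 95% interval -0.00264 to 0.138). ATXN2 overlaps SH2B3 on the opposite strand with 1380 to 2005 counts, and its log2 fold changes against HMC-1.2 were 0.14 for clone 1, -0.05 for clone 2 and 0.16 for HMC-1.1. Those for clone 1 and HMC-1.1 passed the test (adjusted p = 0.0281 and 0.0209), and that for clone 2 did not (adjusted p = 0.488).

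**Figure D2:**
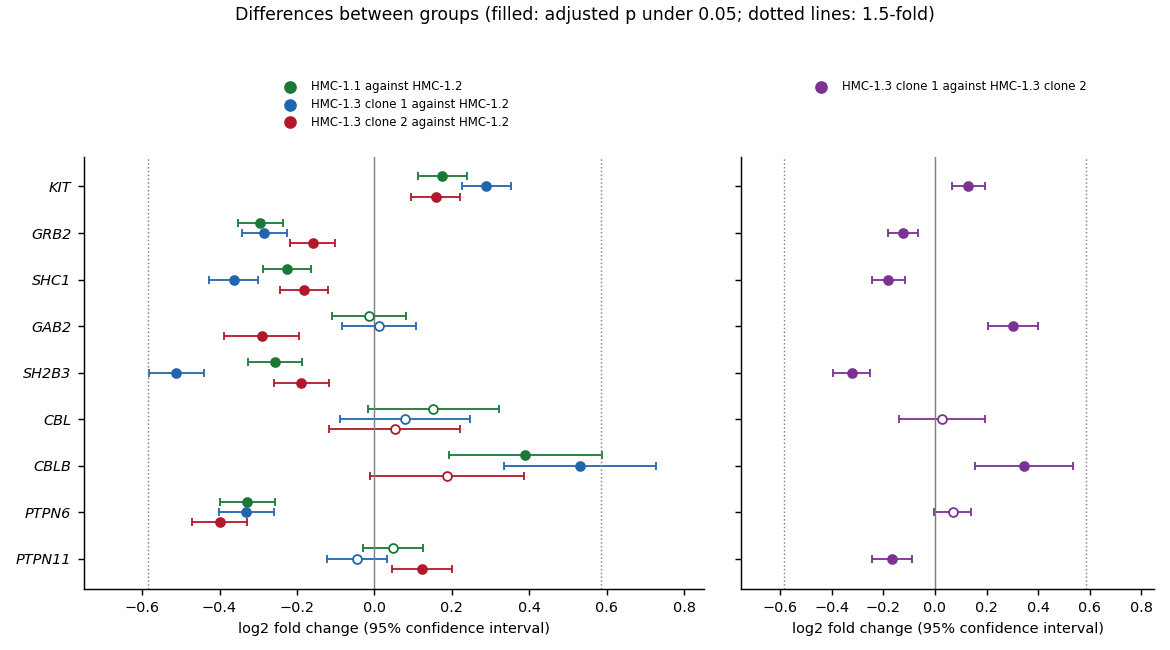
Log2 fold changes (x axes) of the 9 tested genes (rows) with 95% confidence intervals, in the 3 comparisons with HMC-1.2 (left) and between the HMC-1.3 clones (right); filled points had an adjusted p under 0.05 and dotted lines mark 1.5-fold. KIT was above 0 in all 4 comparisons, SH2B3 in clone 1 (-0.51) and CBLB in clone 1 (0.53) came closest to the dotted lines, and CBL was unfilled throughout.

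The ubiquitin ligases were measured less precisely than the rest. CBL, which ubiquitinates activated KIT and marks it for degradation, had a coefficient of variation of up to 14.4% within a group, against at most 6.65% for GAB2 and 4.56% for PTPN11. Its levels were 135, 127 and 148 CPM in HMC-1.2, 152, 155 and 149 in HMC-1.1, 136, 129 and 168 in clone 1, and 129, 146 and 150 in clone 2. Clone 1 replicate 3, a library labelled as resent, was the highest of the 12. CBL did not pass the test in any of the 6 comparisons. The largest difference was HMC-1.1 against HMC-1.2, at log2 0.15 (SE 0.08, adjusted p = 0.118, 95% interval -0.0156 to 0.321). That comparison passed with no filter on low counts (adjusted p = 0.000399), with only those groups in the fit (adjusted p = 0.0107), without HMC-1.2 replicate 3 (adjusted p = 0.0415) and without clone 1 replicate 3 (adjusted p = 0.0302). Without clone 1 replicate 3, CBL in clone 1 went from 0.08 above HMC-1.2 to -0.04 (adjusted p = 0.587).

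CBLB, a close relative of CBL, was the least abundant of the 9 tested genes and had the widest range of group means. Its expected counts ran from 279 to 366 over the HMC-1.2 libraries, 454 to 505 over those of HMC-1.1, 460 to 554 over clone 1 and 371 to 516 over clone 2. In CPM, HMC-1.2 read 10.2, 9.21 and 9.69, HMC-1.1 read 12, 13.9 and 12.3, clone 1 read 14.2, 12.3 and 15.7, and clone 2 read 10.8, 10.4 and 11.9. The HMC-1.2 libraries were again the lowest. CBLB rose by 0.53 in clone 1 against HMC-1.2 (SE 0.09, adjusted p = 9.93e-05) and by 0.39 in HMC-1.1 (SE 0.09, adjusted p = 0.002), and clone 1 exceeded clone 2 by 0.34 (SE 0.09, adjusted p = 0.0042). Clone 2 differed from HMC-1.2 by 0.19 (SE 0.09, adjusted p = 0.113, 95% interval -0.0118 to 0.387). All 3 calls were lost when the deposited FPKM values were tested with limma, with a lowest adjusted p of 0.111 in clone 1, 0.475 in HMC-1.1 and 0.26 between clones. The within-group coefficient of variation of CBLB was 19.4% to 26.8% in FPKM and 5.2% to 12.3% in CPM. The 25 tested genes within 5 Mb of CBLB had median log2 fold changes against HMC-1.2 of -0.000818 for clone 1, 0.22 for clone 2 and 0.22 for HMC-1.1.

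PTPN6, which binds phosphorylated KIT and dephosphorylates it, was lower in the other 3 groups than in HMC-1.2. The HMC-1.2 libraries read 569, 569 and 540 CPM, and the highest of the other libraries read 460. HMC-1.1 gave 449, 440 and 448, clone 1 gave 460, 447 and 427, and clone 2 gave 434, 428 and 409. PTPN6 fell by 0.33 on the log2 scale in clone 1 (SE 0.03, adjusted p = 2.18e-07), by 0.40 in clone 2 (SE 0.03, adjusted p = 2.63e-08) and by 0.33 in HMC-1.1 (SE 0.03, adjusted p = 3.14e-07). Among these 3 groups no difference passed, although clone 2 fell below HMC-1.1 without TMM scaling (log2 -0.09, adjusted p = 0.0314). Clone 1 was 0.07 above clone 2 (adjusted p = 0.098, 95% interval -0.0018 to 0.14). The difference between clones also passed without TMM scaling (adjusted p = 0.00702) and without clone 1 replicate 3 (adjusted p = 0.0272).

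PTPN11, unlike PTPN6, is a phosphatase that promotes RAS signalling, and it moved little. It read 268, 253 and 258 CPM in HMC-1.2, 272, 275 and 260 in HMC-1.1, 243, 248 and 265 in clone 1, and 278, 281 and 290 in clone 2. Clone 2 held the 3 highest libraries. PTPN11 rose in clone 2 by 0.12 against HMC-1.2 (SE 0.04, adjusted p = 0.0101), a call that was lost without HMC-1.2 replicate 2 (adjusted p = 0.0528). The difference of clone 1 from clone 2 was -0.17 (SE 0.04, adjusted p = 0.00101). Clone 1 and HMC-1.1 were not told apart from HMC-1.2, at log2 -0.04 (95% interval -0.122 to 0.0328) and 0.05 (95% interval -0.0286 to 0.126). Clone 1 was -0.09 from HMC-1.1 (adjusted p = 0.0874), which passed without HMC-1.1 replicate 3 (adjusted p = 0.0486), without clone 1 replicate 3 (adjusted p = 0.0201) and with DESeq2 (adjusted p = 0.021). RPL6 overlaps PTPN11 on the opposite strand with 26927 to 36069 counts and its log2 fold changes against HMC-1.2 were -0.11, -0.14 and -0.09 in clone 1, clone 2 and HMC-1.1. All of these RPL6 changes passed the test (adjusted p = 0.00649, 0.0013 and 0.033).

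Since KIT was lowest and GRB2, SHC1, SH2B3 and PTPN6 were highest in HMC-1.2, ratios of counts within a library separated HMC-1.2 from the others without any scaling between libraries. These ratios were chosen after the values were seen and carry no test, and they compare a gene pair across libraries, not the levels of the pair. KIT had 3.01 ± 0.111 counts per PTPN6 count (SD, n = 3) for HMC-1.2, 4.26 ± 0.0649 for HMC-1.1, 4.62 ± 0.285 for clone 1 and 4.43 ± 0.191 for clone 2. The 3 HMC-1.2 libraries spanned 2.89 to 3.1 and the lowest other library stood at 4.19. The ratio to SH2B3 was 5.6 ± 0.207 for HMC-1.2, 7.55 ± 0.217 for HMC-1.1, 9.74 ± 0.0596 for clone 1 and 7.12 ± 0.247 for clone 2. The ratio to SHC1 was 7.62 ± 0.14, 10.1 ± 0.381, 12 ± 0.584 and 9.65 ± 0.108 in the same order of groups, and that to GRB2 was 4.15 ± 0.0832, 5.74 ± 0.0916, 6.17 ± 0.299 and 5.17 ± 0.161. HMC-1.2 was below every other library in each of these 4 ratios. The same held for GAB2 and PTPN11, which were not highest in HMC-1.2. KIT, shared by all these ratios, was itself lowest in HMC-1.2 without overlap, so a gene of flat level would also give a low ratio there. The share of all genes whose ratio to KIT separated HMC-1.2 was not counted, so these separations say little about the partner genes. The ratio to GAB2 was 31.8 to 32.8 in HMC-1.2 and at least 36.5 in the other libraries. That to PTPN11 was 6.44 to 6.5 in HMC-1.2 and at least 6.57 in the other libraries. The ratio to CBL in HMC-1.2 (11.3 to 12.9) overlapped that of HMC-1.1 (12.2 to 12.7), clone 1 (12.6 to 15.3) and clone 2 (12.7 to 14.5). The ratio to CBLB in HMC-1.2 (169 to 178) overlapped that of clone 2 (160 to 179).

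**Figure D3:**
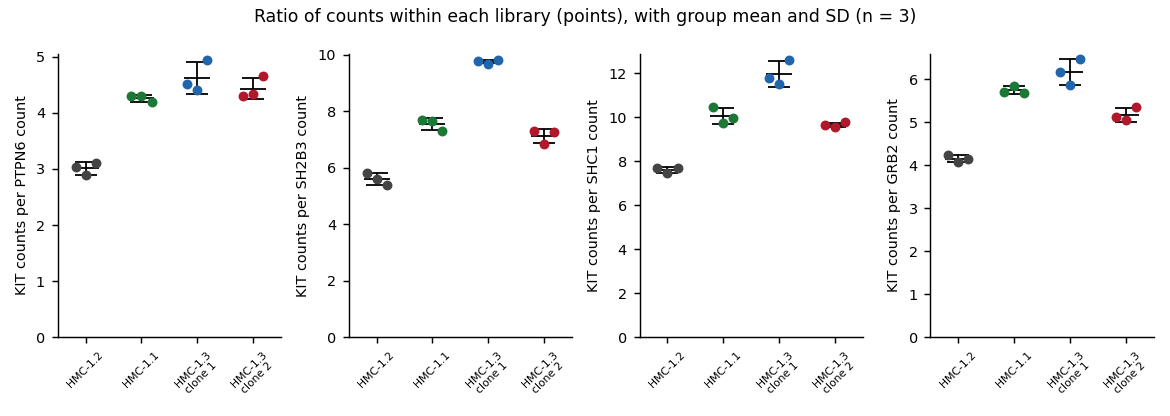
KIT counts per count of PTPN6, SH2B3, SHC1 and GRB2 within each library (y axes, from 0), by group (x axes); points are libraries and the black marks are the group mean ± SD (n = 3). The HMC-1.2 libraries were the lowest in all 4 panels, and for SH2B3 clone 1 was the highest (9.68 to 9.79).

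Most of the 9 genes passed the test in the comparisons with HMC-1.2, as did a large share of all genes, and none of the 9 changed by more than 1.5-fold. In clone 1 against HMC-1.2, 6 of 9 passed the adjusted p, 2 higher and 4 lower, while 59.4% of all genes tested passed, 30.1% higher and 29.3% lower. In clone 2 against HMC-1.2, 7 of 9 passed (2 higher, 5 lower), with 48.5% of all genes passing (24.7% higher, 23.8% lower). Between HMC-1.1 and HMC-1.2, 6 of 9 passed (2 higher, 4 lower), with 53.7% of all genes (27.2% higher, 26.5% lower). Clone 1 against HMC-1.1 had 3 of 9 passing beside 18.7% of all genes, clone 2 against HMC-1.1 had 2 of 9 beside 36%, and clone 1 against clone 2 had 7 of 9 beside 50.2%. No member was both past the adjusted p and over 1.5-fold in any of the 6 comparisons, where 20%, 16.5%, 17.6%, 1.01%, 8.19% and 12.6% of all genes were, in the same order. CBLB in clone 1 against HMC-1.2 did pass 1.5-fold without TMM factors (log2 0.59) and without clone 1 replicate 2 (log2 0.61). The median absolute log2 fold change of the 9 genes was 0.29, 0.18 and 0.23 in clone 1, clone 2 and HMC-1.1 against HMC-1.2, and that of all genes was 0.29, 0.21 and 0.24.

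The gene profiles most like that of KIT were found among the 9737 tested genes whose mean reached 10 CPM, from the root mean square difference of the 4 centred group means of log2 CPM. The 5 nearest were DBNDD2 (0.00863), MRPS30 (0.00868), USP25 (0.00903), ACP1 (0.0131) and STIM1 (0.0137). KIT's own centred means were 0.02 for HMC-1.1, -0.16 for HMC-1.2, 0.13 for clone 1 and 0.00344 for clone 2. The profile of CBLB, which had the widest range (0.53), was most like those of AMDHD2 (0.00696), MIOS (0.0088), PPP3CA (0.00969), BRI3 (0.0115) and LCORL (0.0137). These are descriptions over 4 groups and 12 libraries.

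Some other genes of the pathway changed more than the 10 described above. Of 77 genes in 6 lists around the receptor, 63 were tested. In clone 1 against HMC-1.2, 19 were higher and 26 lower by the adjusted p, and 6 and 12 of them were over 1.5-fold. That made 71.4% past the adjusted p and 28.6% also over 1.5-fold, where 59.4% and 20% of all genes were. Clone 2 against HMC-1.2 gave 17 higher and 29 lower (6 and 14 over 1.5-fold), or 73% and 31.7% beside 48.5% and 16.5% of all genes. HMC-1.1 against HMC-1.2 gave 19 higher and 27 lower (6 and 11 over 1.5-fold), or 73% and 27% beside 53.7% and 17.6%. These shares are descriptions with no test. The lists were drawn up with earlier results of these data known, and the shares of all genes were not matched for expression level. The shares are therefore not evidence that the pathway changed more than other genes. The median log2 fold change of the 63 genes was -0.03, -0.09 and -0.07, against 0.0137, -9.12e-05 and 0.00851 for all genes tested.

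The adaptors held the largest differences. LAT2 (NTAL), a membrane adaptor phosphorylated downstream of KIT and the IgE receptor, stood at 15.4 ± 1.04 FPKM in HMC-1.2 (SD, n = 3) and at 0.89 ± 0.0794 for clone 1, 0.41 ± 0.135 for clone 2 and 0.493 ± 0.227 for HMC-1.1. The log2 fold changes of LAT2 were -4.48, -5.16 and -5.02 (adjusted p at most 1.55e-12). DOK3, an inhibitory docking protein, fell from 40.9 ± 2.87 FPKM, with log2 fold changes of -1.68 for clone 1, -3.57 for clone 2 and -1.89 for HMC-1.1. GRAP2 (GADS), a relative of GRB2, stood at 62.9 ± 0.584 FPKM in HMC-1.2, 49.6 ± 3.07 for clone 2, 8.12 ± 1.14 for clone 1 and 5.88 ± 1.14 for HMC-1.1, so that the clones differed in it by a log2 fold change of -2.65 (adjusted p = 1.38e-16). GAB3, a relative of GAB2, fell as well, with log2 fold changes of -1.83 for clone 1, -0.85 for clone 2 and -1.92 for HMC-1.1. Other relatives rose. GAB1 had log2 fold changes of 0.84, 0.72 and 1.05 in that order, at 0.767 ± 0.272 FPKM in HMC-1.2, and SHC2, a relative of SHC1, had 1.88, 0.90 and 1.52. GAB1 and SHC2 were named after their values were seen. In that list of 19 tested adaptors and exchange factors, 5 were higher and 10 lower in clone 1, 4 and 9 in clone 2, and 4 and 9 in HMC-1.1. That is 78.9%, 68.4% and 68.4% of the list, beside 59.4%, 48.5% and 53.7% of all genes in the same 3 comparisons.

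**Figure D4:**
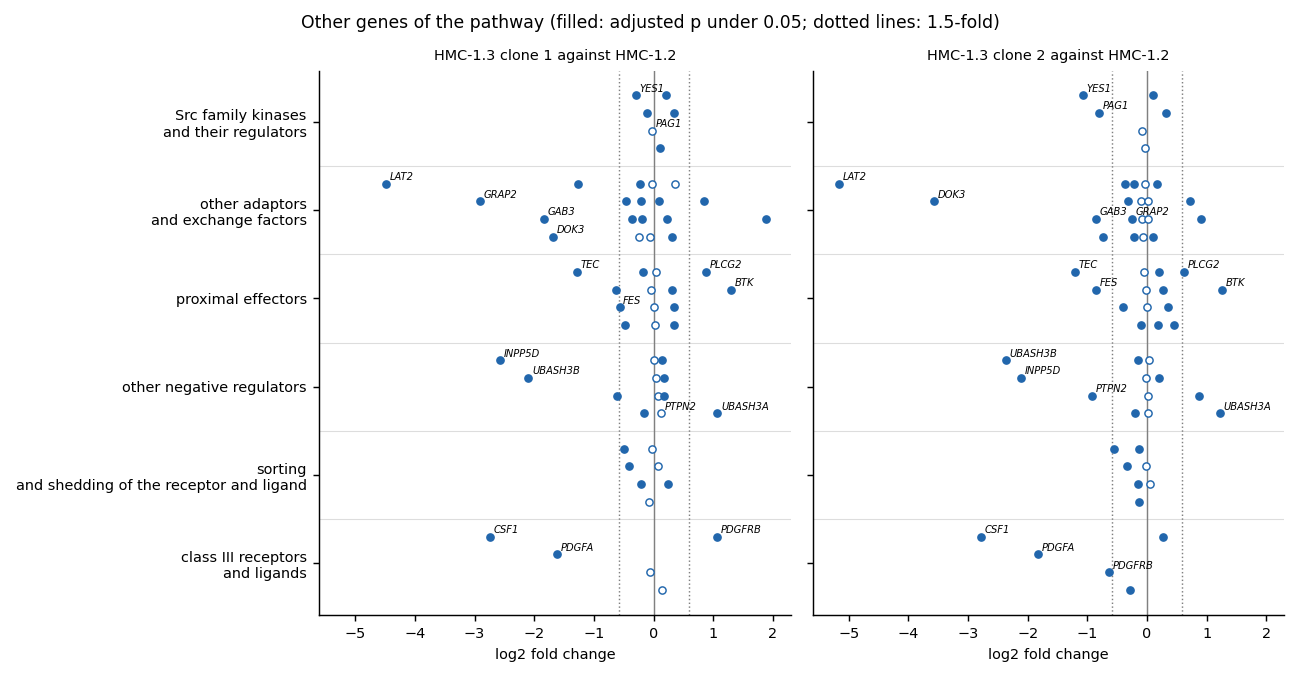
Log2 fold changes (x axes) against HMC-1.2 of the 63 tested genes of the 6 lists (rows), for HMC-1.3 clone 1 (left) and clone 2 (right); each point is a gene, filled where the adjusted p was under 0.05, and its height within a row has no meaning. LAT2 (-4.48 and -5.16) lay farthest from 0 in both panels, and GRAP2 (-2.91 and -0.26) and DOK3 (-1.68 and -3.57) differed between the panels.

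The other lists held changes in both directions. Among 12 tested negative regulators, 4 were higher and 4 lower in clone 1 against HMC-1.2, 3 and 5 in clone 2, and 6 and 4 in HMC-1.1, or 66.7%, 66.7% and 83.3% beside 59.4%, 48.5% and 53.7% of all genes. INPP5D (SHIP-1), the lipid phosphatase that opposes PI3K at the membrane, was at 129 ± 2.84 FPKM in HMC-1.2 and fell to 25.5 ± 0.467 for clone 1, 30 ± 0.69 for clone 2 and 25.6 ± 1.19 for HMC-1.1 (log2 -2.58, -2.12 and -2.55). UBASH3B (STS-1), a CBL partner, had log2 fold changes of -2.1, -2.36 and -1.96 in that order, whereas its relative UBASH3A rose by 1.07, 1.22 and 0.97. PTPN2, a tyrosine phosphatase, fell by 0.92 in clone 2 and was 0.12 above HMC-1.2 in clone 1 (adjusted p = 0.0578), with a difference between clones of 1.04 (adjusted p = 7.75e-11). Genes neighbouring PTPN2 and the other list genes on their chromosomes were not examined, so a regional change shared with them was not tested.

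Among 14 proximal effectors, 5 were higher and 5 lower in clone 1 against HMC-1.2, 7 and 4 in clone 2, and 6 and 5 in HMC-1.1, or 71.4%, 78.6% and 78.6% beside 59.4%, 48.5% and 53.7% of all genes. BTK, a Tec family kinase, was at 140 ± 0.908 FPKM in HMC-1.2 and rose to 359 ± 2.72, 342 ± 4.13 and 348 ± 1.1 in clone 1, clone 2 and HMC-1.1, whereas its relative TEC fell from 10.1 ± 0.69 to 4.35 ± 0.236, 4.07 ± 0.218 and 4.97 ± 0.183. PLCG2, the phospholipase downstream of these kinases, rose by 0.88, 0.62 and 0.78, and the kinase FES had log2 fold changes of -0.57, -0.86 and -0.67. Of 6 tested Src family kinases and regulators, 3 were higher and 2 lower in clone 1, 2 and 2 in clone 2, and 1 and 2 in HMC-1.1, or 83.3%, 66.7% and 50% beside the same shares of all genes. YES1 and the CSK anchor PAG1 fell in clone 2 by 1.08 and 0.81. YES1 also fell by 0.30 in clone 1 (adjusted p = 2.21e-06) and PAG1 by 0.35 in HMC-1.1 (adjusted p = 8.6e-05). The differences between clones were 0.79 for YES1 (adjusted p = 3.25e-11) and 0.78 for PAG1 (adjusted p = 1.26e-08). As with PTPN2, genes around YES1 and PAG1 were not examined. The 7 genes for sorting and shedding of receptor and ligand had 1 higher and 3 lower in clone 1, 0 and 5 in clone 2, and 1 and 4 in HMC-1.1, none over 1.5-fold. That is 57.1%, 71.4% and 71.4%, again beside 59.4%, 48.5% and 53.7% of all genes.

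Receptors related to KIT were low. FLT3, CSF1R and PDGFRA did not pass the filter on low counts. CSF1, the ligand of CSF1R, was at 45 ± 0.915 FPKM in HMC-1.2 and fell to 6.82 ± 0.388 for clone 1, 6.56 ± 0.156 for clone 2 and 6.69 ± 0.151 for HMC-1.1 (log2 -2.74, -2.79 and -2.78, adjusted p at most 4.49e-18). PDGFA stood at 0.503 ± 0.0808 FPKM in HMC-1.2 and at 0.08 to 0.183 in the group means of the others. PDGFRB was below 1 FPKM in the group means, with log2 fold changes against HMC-1.2 of 1.06 for clone 1, -0.63 for clone 2 and 0.85 for HMC-1.1. In FPKM the group mean of PDGFRB in clone 2 (0.363 ± 0.255) was above that in HMC-1.2 (0.22 ± 0.06), so its direction in clone 2 differed between counts and FPKM. Of the 5 tested genes of this list, 1 was higher and 2 lower in clone 1, 1 and 4 in clone 2, and 1 and 3 in HMC-1.1, or 60%, 100% and 80% beside 59.4%, 48.5% and 53.7% of all genes.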

How the data were processed

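The members and the gene lists were chosen with earlier results of these data known. Poly(A) RNA from 12 wells was sequenced with a stranded kit. The authors used Cutadapt 2.10 for trimming, STAR 2.5.3 for alignment to hg38, Picard to mark duplicates and RSEM 1.3.0 for gene abundance. They deposited expected counts per gene (7.39% of values not whole, rounded here before the count tests) and FPKM values, which allow for gene length and depth. The strand setting of the counting is not given in the sources used here, so reads of overlapping genes could be shared. Authors' comparisons were not used. Of 58381 gene identifiers, 99% matched Gencode 44, whose GRCh38 positions are printed.

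Counts were tested in R 4.3.3 with edgeR 4.0.16 (TMM factors, filterByExpr, quasi-likelihood test, 4 groups in 1 fit, 6 contrasts, Benjamini-Hochberg adjustment over 15944 genes). Calls needed an adjusted p under 0.05, and counts over 1.5-fold are given apart. Named genes were the members, up to 4 genes per list with the largest change among those past both thresholds in any comparison with HMC-1.2, and the 5 genes nearest in profile to KIT and to the member of widest range. In simulated counts for clone 1 against HMC-1.2 (15944 genes), edgeR called 25 of 50 genes changed by 1.2-fold, 37 of 50 changed by 1.5-fold and 49 of 50 changed by 2-fold. The simulation changed 200 genes drawn at random, whereas 59.4% of genes passed in the data. These shares are therefore not the power for the members. Replicates differed by more than sampling noise (chi-square per degree of freedom 2.92 to 8.21). The labels mark HMC-1.2 replicate 1, clone 1 replicate 3 and clone 2 replicate 1 as resent, and no HMC-1.1 library. What was resent is not given, and a term for these libraries changed no call of a member. Alternatives were DESeq2 1.42.0, limma 3.58.1 on log2(FPKM + 1) and log2(FPKM + 0.1), other filters and scaling, glmTreat, a replicate block, a term for libraries labelled as resent, and leaving out each library.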

Additional observations from a re-analysis of the deposited data

Results flagged for a closer look

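The HMC-1.3 clones, which have the same KIT genotype by their labels, differed from each other in 7 of the 9 tested genes by the direct edgeR contrast of clone 1 with clone 2. The log2 fold change, clone 1 minus clone 2, was 0.13 for KIT (adjusted p = 0.00166), -0.124 for GRB2 (adjusted p = 0.00124), 0.302 for GAB2 (adjusted p = 3.18e-05) and -0.181 for SHC1 (adjusted p = 7.5e-05). It was -0.323 for SH2B3 (adjusted p = 4.88e-07), 0.344 for CBLB (adjusted p = 0.0042) and -0.167 for PTPN11 (adjusted p = 0.00101). Of all genes tested, 50.2% passed in this contrast. GAB2 and SH2B3 moved relative to HMC-1.2 mainly in different clones, GAB2 by -0.29 in clone 2 and SH2B3 by -0.51 in clone 1. Each clone was a single culture line, so clone and any other difference between the cultures cannot be told apart.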

How the results depend on the processing

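Over 22 alternatives, 1109 of 1188 log2 fold changes of the members kept their direction and their side of the threshold, 43 lost a call, 12 gained one and 24 changed sign, all 24 of them values that had not passed. Against a null of 1.5-fold (glmTreat), 0 members passed in each of the 6 comparisons, which accounts for 31 of the 43. CBLB in clone 1 against HMC-1.2 was over 1.5-fold without TMM factors (log2 0.586, so 1 member past that threshold) and without clone 1 replicate 2 (log2 0.613), and leaving out single libraries gave 0 to 1 members there. Clone 1 against HMC-1.1 gave 2 to 5 members past the adjusted p when single libraries were left out, and 5 came without clone 1 replicate 3, where CBL (log2 -0.192) and PTPN11 (log2 -0.126) passed. For KIT, GRB2, SHC1, SH2B3 and PTPN6 against HMC-1.2, every alternative except glmTreat kept the call and the direction.

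Signs that changed belonged to values near 0. GAB2 in clone 1 against HMC-1.2 was -0.00327 with DESeq2. PTPN11 in clone 1 against HMC-1.2 was 0.00952 without TMM factors and 0.00304 and 0.00309 with limma on FPKM, with pseudocounts of 1 and 0.1. The GAB2 difference between HMC-1.1 and HMC-1.2 was 0.0182 without TMM factors and 0.0463 and 0.0508 with limma. PTPN6 in clone 1 against HMC-1.1 was 0.0191 without TMM factors, and SHC1 in clone 2 against HMC-1.1 was -0.0169 and -0.0171 with limma. With single libraries left out, GAB2 ranged from -0.0331 to 0.0581 and CBL from -0.0424 to 0.146 in clone 1 against HMC-1.2, and GAB2 from -0.0369 to 0.00306 between HMC-1.1 and HMC-1.2. In clone 1 against HMC-1.1, GRB2 ranged from -0.013 to 0.0287, GAB2 from -0.0185 to 0.0734 and PTPN6 from -0.0359 to 0.0302. KIT in clone 2 against HMC-1.1 ranged from -0.0246 to 0.00157, and CBL between the clones from -0.0969 to 0.0919. The causes were not tested.

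Same-numbered libraries of different groups correlated by -0.0433 to 0.0964, with 0 of 18 pairs over 0.1. Other-numbered libraries of different groups correlated by -0.11 to 0.082. Of the 12 libraries, 8 were nearest to their own number. These values do not settle whether the numbers pair the samples, and the main fit took no pairing. With the replicate block, PTPN6 in clone 1 against clone 2 passed (log2 0.069, adjusted p = 0.048), and no other member call changed. Scaling moved the median of all genes by at most 0.0541. KITLG had at most 3 counts per library, so no difference in it could be measured.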
